A study of Homo sapiens with 12 samples.

Results

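Transcripts of 10 genes of the NF-κB pathway were followed in the HMC-1 sublines. The genes were the 5 subunit genes NFKB1, NFKB2, RELA, RELB and REL, the 3 genes of the IκB family NFKBIA, NFKBIE and BCL3, and the feedback targets TNFAIP3 and BIRC3. They were taken by symbol, with earlier results of these data known, and are 10 of the 58381 genes in the tables. HMC-1 is a human line established from a mast cell leukaemia, and its growth is driven by mutated KIT, the receptor for stem cell factor. The KIT mutation of HMC-1.1 is V560G, that of HMC-1.2 is V560G together with D816V, and the HMC-1.3 cells were made from HMC-1.2 by CRISPR/Cas9 repair of V560G, which leaves D816V-KIT on a single allele. Clone 1 and clone 2 of HMC-1.3 are each a single clone, so an effect of the repair and a trait of the clone cannot be told apart within either of them, and the KIT genotype was not read from these libraries. No drug or stimulus is named for any of the cultures. Polyadenylated RNA of 3 cultures of each of the 4 populations was sequenced, giving 12 libraries, and p-values therefore measure the spread between parallel cultures.

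NF-κB factors are dimers of the Rel homology proteins. NFKB1 and NFKB2 encode precursors that are processed into DNA-binding subunits without a transactivation domain, while RELA, RELB and REL encode the subunits that carry one. IκB proteins hold the dimers in the cytoplasm until IκB kinase marks them for degradation, and several of the genes that the freed dimers switch on encode inhibitors, which closes a feedback loop. In mast cells the pathway is known for its role in the induction of cytokines after engagement of the IgE receptor and for survival signals.

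Total counts per library ran from 29225900 to 43181402. No 2 replicates agreed within sampling noise (chi-square of at least 2.855 times its degrees of freedom). Of 12 mast cell markers, 10 lay above 1 FPKM in all 12 libraries, from CPA3 at 3.04 to 11.3 to HDC, the histamine-forming enzyme, at 814 to 1037 FPKM. KIT had 346 to 469 FPKM, and the tryptase gene TPSAB1 varied the most in FPKM, from 27.6 to 607. The summed level of the 12 markers was 2709 to 2739 FPKM in HMC-1.2 and 2016 to 2152 in the other 3 populations, so it moved with the comparisons against HMC-1.2, and its part in them was not tested. The sum gives most weight to abundant markers and does not describe each of them. By the mean FPKM values that the paper lists, KIT and SIGLEC6 were lower in HMC-1.2 than in the other 3 populations. The chains of the IgE receptor were low, with FCER1A at 0.12 to 1.27 and MS4A2 at 0.06 to 0.45 FPKM. Markers of T and B cells were below 1 FPKM in each library, and of 5 monocyte markers only LYZ exceeded 1 FPKM, at 1.53 to 2.43. Replicate 3 of clone 2 stood apart in the keratin genes KRT8 and KRT18, with 6.69 and 7.85 FPKM against at most 0.83 and 0.15 in the other 11 libraries. EPCAM, COL1A1 and COL1A2 did not exceed 0.31 FPKM in any library, and without replicate 3 of clone 2 the number of members that differed from HMC-1.2 was 5 instead of 6, BIRC3 being the member lost.

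The levels of the 10 genes spanned a wide range. On the FPKM scale, which is corrected for transcript length, the order of the means in HMC-1.2 was NFKB2 at 49.7 ± 2.05 (SD, n = 3), RELA at 45.4 ± 1.62, NFKB1 at 32.9 ± 0.52, BCL3 at 31.9 ± 1.3, RELB at 20.8 ± 0.49, NFKBIE at 9.24 ± 1.12, NFKBIA at 3.51 ± 0.36, TNFAIP3 at 1.81 ± 0.19, REL at 1.67 ± 0.03 and BIRC3 at 0.27 ± 0.05. The libraries of NFKB1 and BCL3 overlapped in this order, as did those of TNFAIP3 and REL, and all other neighbours were separated in the 3 HMC-1.2 libraries. BIRC3 rested on 20 to 87 counts per library, the fewest of the 10 genes. These are bulk libraries, in which fewer cells expressing a gene and less RNA of it per cell cannot be told apart.

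**Figure D1:**
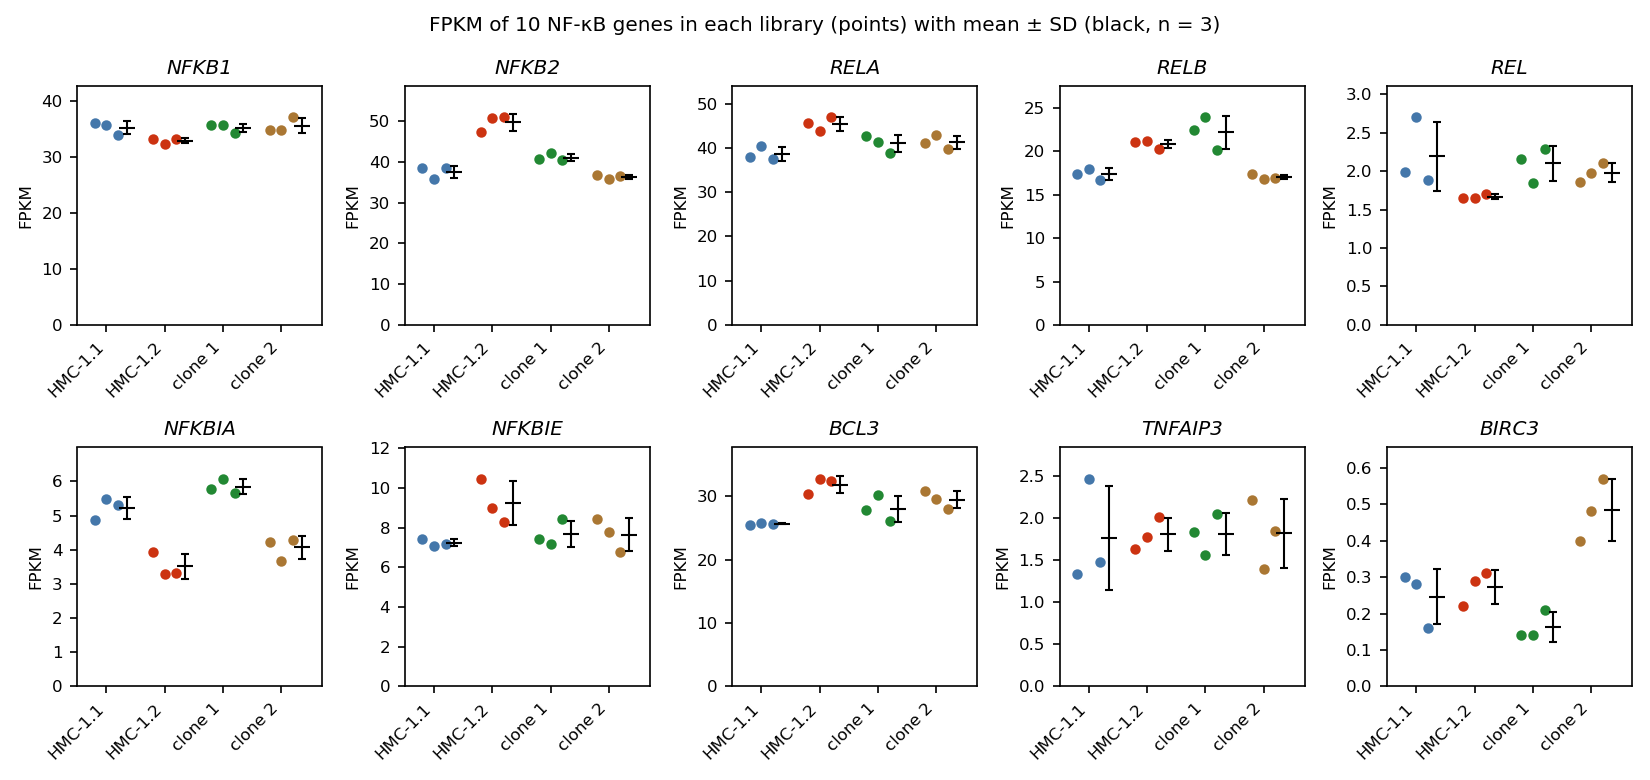
FPKM (linear axis from 0) of each of the 10 genes in the 12 libraries, 3 points per population, with the mean ± SD in black beside them. NFKB2, RELA and BCL3 have their highest mean in HMC-1.2, NFKBIA is lowest there at 3.51 FPKM, and BIRC3 is highest in clone 2 at 0.48 FPKM.

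Differences were tested with edgeR on the counts of the 15944 genes that passed the filter on low counts, among them all 10 members. Genes are said to rise or fall at an adjusted p under 0.05 and are called changed where the fold was also over 1.5. Most members differed between the populations by small amounts. Against HMC-1.2, 1 member rose and 5 fell in clone 1, where 30.1% of all genes tested rose and 29.3% fell. In clone 2, 1 member rose and 5 fell, against 24.7% and 23.8% of all genes. In HMC-1.1, 2 members rose and 5 fell, against 27.2% and 26.5%. Changed members were fewer. In clone 1 they were NFKBIA, which rose, and BIRC3, which fell (11.8% of all genes changed upwards and 8.18% downwards), and in clone 2 only BIRC3 changed, upwards (7.98% of all genes changed upwards and 8.51% downwards). No member changed in HMC-1.1, where 10.1% of all genes changed upwards and 7.52% downwards.

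The same HMC-1.2 libraries entered all 3 comparisons. NFKB2, RELA, NFKBIE and BCL3 fell in each of the 3, and 0 members rose in each. Among all genes tested, 14.9% fell in each and 16% rose in each. In clone 2 the calls on NFKBIE and BCL3 were each lost in 3 of 16 alternative fits. The alternatives include a test against 1.5-fold, which a smaller difference could not pass. The median log2 fold change of the 10 members was -0.19 for clone 1, -0.18 for clone 2 and -0.28 for HMC-1.1, beside medians of 0.01, 0.00 and 0.01 over all genes tested. Library-scaled counts (CPM) of the groups compared did not overlap for 6 members in the clone 1 comparison, 8 in that of clone 2 and 7 in that of HMC-1.1, where 64.2%, 56.0% and 59.9% of all genes tested did not overlap.

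**Figure D2:**
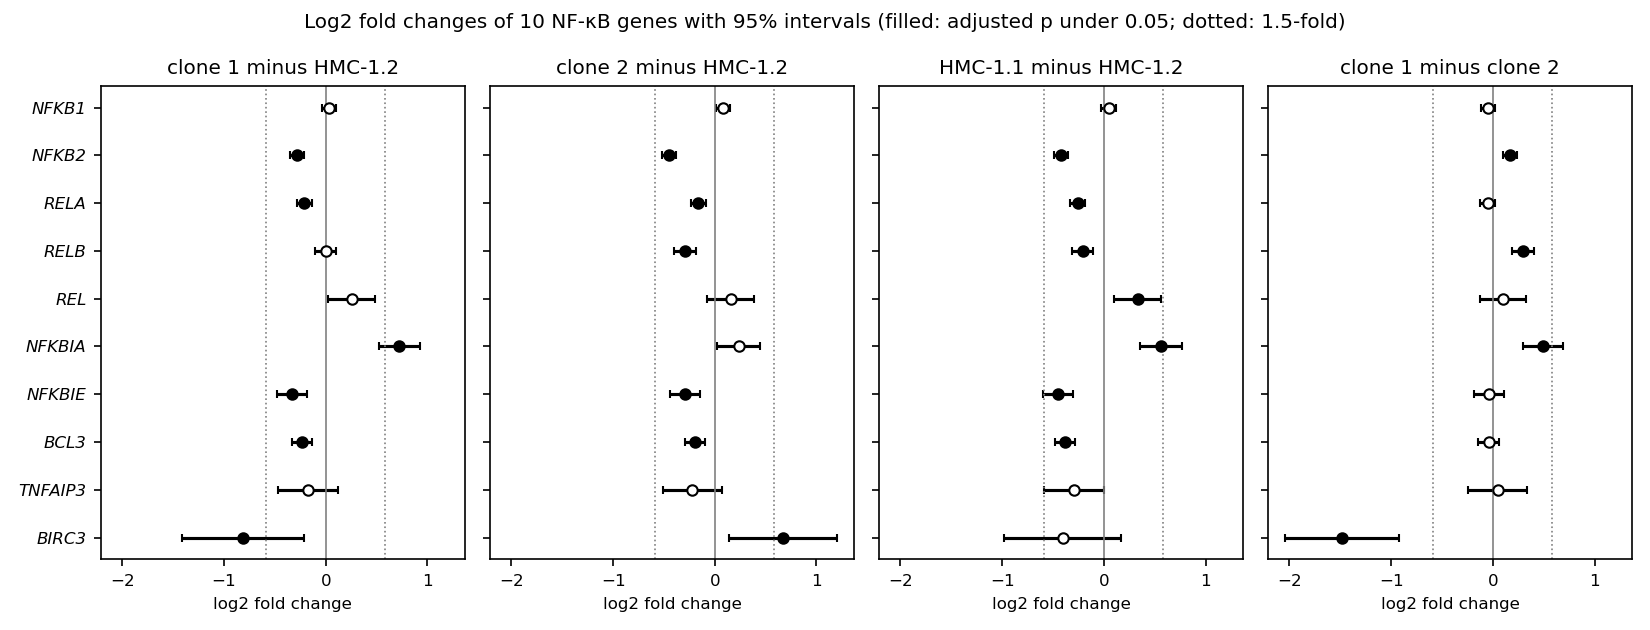
Log2 fold changes (x axis) of the 10 genes in 4 comparisons, with bars for an approximate 95% interval derived from the edgeR test, filled points for an adjusted p under 0.05 and dotted lines at 1.5-fold. NFKB2, RELA, NFKBIE and BCL3 lie to the left of 0 in the 3 panels against HMC-1.2, and BIRC3 lies at -0.81 in clone 1 and at 0.67 in clone 2.

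Windows from 250 bases before to 50 bases after the RefSeq start sites (GRCh38.p14) were searched on both strands for the κB consensus, the binding sequence of NF-κB dimers. RefSeq start sites of 8 of the 10 members were in the table used, and RELB and NFKBIE were not. Of the 8 genes, 7 held at least 1 match, in 8 of their 12 windows, and over all genes 7.09% of 27305 held a match (5.91% of 35116 windows). The sequences are shown because the members are regulators of the pathway and genes that it is known to act on, and a match describes letters only. Capitals mark the bases of a match, on either strand, and each sequence is written on the strand of the gene.

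**Figure D3:**
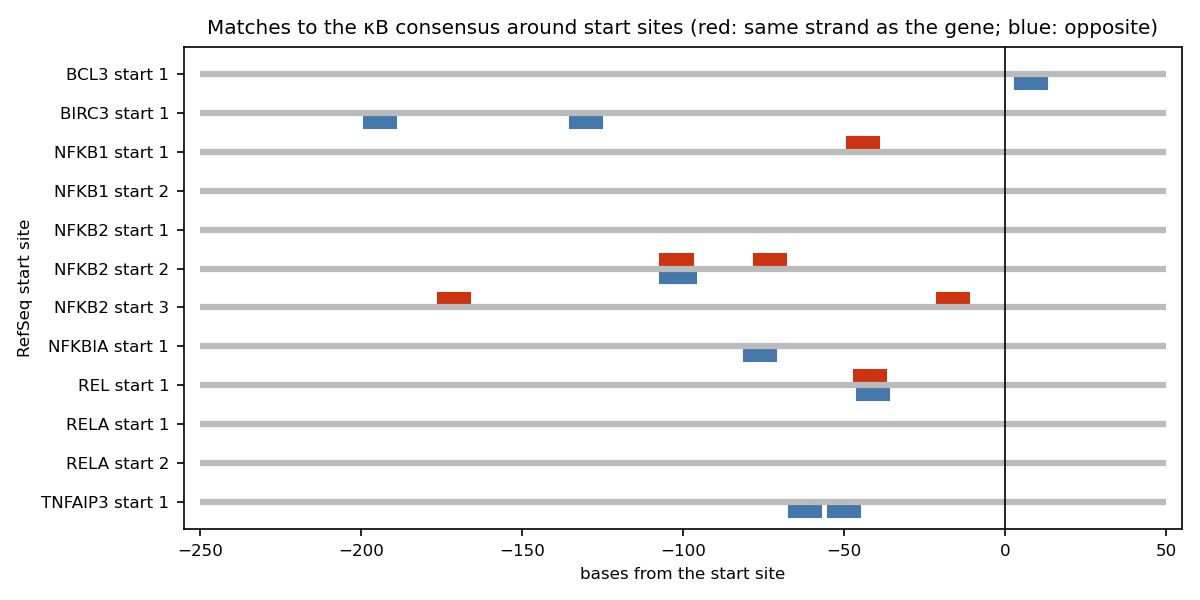
Matches to the κB consensus (boxes of 10 bases) in the windows around 12 RefSeq start sites of 8 members, by distance from the start site in bases, in red where the match is on the strand of the gene and in blue where it is on the opposite strand. NFKB2 holds matches at 2 of its 3 start sites, NFKB1 at 1 of 2, and RELA at 0 of 2.

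Of the subunit genes, NFKB2 had the lowest adjusted p against HMC-1.2 in each of the 3 comparisons. It lies at chr10:102394110-102402524 on the plus strand (Gencode 44, GRCh38) and encodes the precursor of the non-canonical pathway. The second and the third of its start sites held matches, which overlap at -107 and -106 and lie singly at -78, -176 and -21 bases from their start sites. The stretches are chr10:102394461-102394491, chr10:102394490-102394519, chr10:102395519-102395548 and chr10:102395674-102395703, in that order.
NFKB2 start 2, overlapping matches: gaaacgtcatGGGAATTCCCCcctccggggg
NFKB2 start 2, single match: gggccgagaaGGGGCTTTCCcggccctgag
NFKB2 start 3, distal match: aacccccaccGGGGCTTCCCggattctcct
NFKB2 start 3, proximal match: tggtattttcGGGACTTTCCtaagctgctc
NFKB2 stood at 47.3, 50.7 and 50.9 FPKM in the HMC-1.2 libraries, at 40.6, 42.1 and 40.4 in clone 1, at 36.8, 35.7 and 36.4 in clone 2 and at 38.4, 35.8 and 38.4 in HMC-1.1. All 9 libraries of the other populations were below all 3 of HMC-1.2, and clone 1 was above clone 2 and HMC-1.1, which overlapped. The log2 fold change against HMC-1.2 was -0.28 ± 0.03 (SE) in clone 1 (edgeR, adjusted p = 1.19e-06), -0.45 ± 0.03 in clone 2 (adjusted p = 3.97e-09) and -0.42 ± 0.03 in HMC-1.1 (adjusted p = 8.91e-09). Clone 1 exceeded clone 2 by 0.17 ± 0.03 on the log2 scale (adjusted p = 0.000361) and HMC-1.1 by 0.14 ± 0.03 (adjusted p = 0.00609). The call against HMC-1.1 was lost in 5 of 16 alternatives. Among these were the fits without replicate 2 of HMC-1.1 (0.12, adjusted p = 0.0525) and without replicate 2 of clone 1 (0.11, adjusted p = 0.0574). Between clone 2 and HMC-1.1 the difference was -0.03, with a 95% interval from -0.10 to 0.04.

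RELA encodes the transactivating subunit of the canonical dimer and lies at chr11:65653599-65663090 on the minus strand, where RELA-DT overlaps it on the opposite strand. Its FPKM values were 45.6, 43.7 and 46.9 in HMC-1.2, 42.7, 41.4 and 38.9 in clone 1, 41.1, 42.8 and 39.8 in clone 2 and 37.9, 40.5 and 37.5 in HMC-1.1. Again the 3 HMC-1.2 libraries were the highest, with no overlap, and the other 3 populations overlapped with each other. RELA fell by 0.21 on the log2 scale in clone 1 (edgeR, adjusted p = 6.87e-05), by 0.16 in clone 2 (adjusted p = 0.0012) and by 0.26 in HMC-1.1 (adjusted p = 1.13e-05), each with an SE of 0.04. Clone 2 minus HMC-1.1 was 0.10 ± 0.04 (adjusted p = 0.0442), a call at the limit that was lost in 12 of 16 alternatives. Among these were the fits without replicate 1 or 3 of HMC-1.1 (0.09 and 0.10, adjusted p = 0.122 and 0.0973) and without replicate 1 or 2 of clone 2 (0.07 and 0.10, adjusted p = 0.171 and 0.0801). No difference passed the test between the clones (-0.05, 95% interval -0.13 to 0.02) or between clone 1 and HMC-1.1 (0.04, interval -0.03 to 0.12).

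NFKB1, the precursor gene of the canonical pathway at chr4:102501330-102617302 on the plus strand, held a match at -49 bases of its first start site, at chr4:102501300-102501329.
NFKB1 start 1: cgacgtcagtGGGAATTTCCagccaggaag
NFKB1 was the subunit gene that did not pass the test in any of the 6 comparisons. Its values were 33.3, 32.4 and 33.2 FPKM in HMC-1.2, 35.7, 35.7 and 34.3 in clone 1, 34.8, 34.9 and 37.1 in clone 2 and 36.1, 35.7 and 34.0 in HMC-1.1. On the FPKM scale HMC-1.2 was below the 9 other libraries, whereas on the CPM scale it overlapped with clone 1 and HMC-1.1. In edgeR's test on the counts, the differences from HMC-1.2 did not pass, at 0.03 in clone 1 (95% interval -0.04 to 0.11, adjusted p = 0.416), 0.08 in clone 2 (0.01 to 0.15, adjusted p = 0.0532) and 0.05 in HMC-1.1 (-0.02 to 0.12, adjusted p = 0.257). The difference in clone 2 passed in 4 of 16 alternatives, among them the fit without replicate 2 of clone 2 (0.10, adjusted p = 0.0465). In clone 1 it passed in 1 of 16.

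RELB, the subunit that pairs with the product of NFKB2, lies at chr19:45001461-45038192 on the plus strand, and it set clone 1 apart from clone 2. The libraries held 21.1, 21.1 and 20.3 FPKM in HMC-1.2, 22.5, 23.9 and 20.2 in clone 1, 17.3, 16.8 and 17.0 in clone 2 and 17.37, 18.01 and 16.67 in HMC-1.1. Clone 1 overlapped with HMC-1.2, clone 2 overlapped with HMC-1.1, and the libraries of the first pair were all above those of the second. Against HMC-1.2, RELB fell by 0.29 on the log2 scale in clone 2 (edgeR, adjusted p = 0.00011) and by 0.21 in HMC-1.1 (adjusted p = 0.00197), each with an SE of 0.05, and the estimate in clone 1 was 0.00 with an interval from -0.11 to 0.10 (adjusted p = 0.995). The clones themselves differed by 0.29 ± 0.05 (adjusted p = 0.000104), and clone 1 exceeded HMC-1.1 by 0.21 ± 0.05 (adjusted p = 0.00783), or by 0.17 (adjusted p = 0.052) without replicate 2 of clone 1.

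REL, which encodes c-Rel, the subunit best known from lymphoid cells, lies at chr2:60881491-60931612 on the plus strand. On the same strand ENSG00000267520 and RNU4-51P overlap REL. Overlapping matches at -47 and -46 bases from its start site were found at chr2:60881517-60881547.
REL start 1: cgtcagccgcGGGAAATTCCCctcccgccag
REL was low, at 1.65, 1.65 and 1.70 FPKM in HMC-1.2, 2.16, 1.85 and 2.29 in clone 1, 1.86, 1.97 and 2.11 in clone 2 and 1.99, 2.70 and 1.88 in HMC-1.1. All 3 HMC-1.2 libraries were below the 9 others on this scale, and the 9 others overlapped between populations. By the counts, REL rose in HMC-1.1 by 0.33 ± 0.11 on the log2 scale (edgeR, adjusted p = 0.0162), although 1 library of HMC-1.1 overlapped with HMC-1.2 in CPM. The call was lost in 5 of 16 alternatives, among them the fits without replicate 2 of HMC-1.1 (0.22, adjusted p = 0.091) and without replicate 3 of HMC-1.2 (0.29, adjusted p = 0.0551). In clone 1 the difference was 0.25 ± 0.11 (adjusted p = 0.0554). It passed in 4 of 16 alternatives, among them the fit without replicate 2 of clone 1 (0.31, adjusted p = 0.032). In clone 2 the difference was 0.16 ± 0.11 (adjusted p = 0.262).

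Among the genes of the IκB family, NFKBIA rose in clone 1 and HMC-1.1, while NFKBIE and BCL3 fell there. In clone 2 NFKBIE and BCL3 fell, and the difference of NFKBIA did not pass. NFKBIA encodes IκBα, the inhibitor that the canonical dimer is known to re-induce, and lies at chr14:35401079-35404749 on the minus strand. The 250 bases before its start site (chr14:35404750-35404999, minus strand) held 1 match, at -81, and are printed whole because NFKBIA was a changed member.
NFKBIA, 250 bases before the start site: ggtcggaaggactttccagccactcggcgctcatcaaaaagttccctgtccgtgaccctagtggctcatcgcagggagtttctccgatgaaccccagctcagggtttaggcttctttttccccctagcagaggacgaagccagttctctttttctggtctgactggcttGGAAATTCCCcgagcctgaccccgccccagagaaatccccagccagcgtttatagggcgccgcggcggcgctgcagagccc
NFKBIA had 3.92, 3.29 and 3.32 FPKM in HMC-1.2, 5.78, 6.08 and 5.66 in clone 1, 4.24, 3.68 and 4.29 in clone 2 and 4.86, 5.49 and 5.32 in HMC-1.1. The order was clone 1, HMC-1.1, clone 2 and HMC-1.2, and clone 2 and HMC-1.2 were the only neighbours whose libraries overlapped. It rose 1.65-fold in clone 1 (log2 0.72 ± 0.10, edgeR, adjusted p = 5.32e-06) and 1.48-fold in HMC-1.1 (0.56 ± 0.10, adjusted p = 0.000103), which is under the limit for a changed gene. In clone 2 the difference from HMC-1.2 was 0.23 ± 0.10 (adjusted p = 0.0594), and it passed without replicate 1 of HMC-1.2 (0.31, adjusted p = 0.0298) or replicate 2 of clone 2 (0.30, adjusted p = 0.0321). Clone 1 exceeded clone 2 by 0.49 ± 0.09 (adjusted p = 0.000305) and clone 2 against HMC-1.1 gave -0.33 ± 0.09 (adjusted p = 0.0108, and 0.0614 without replicate 2 of clone 2), while clone 1 and HMC-1.1 differed by 0.16 with an interval from -0.03 to 0.35 (adjusted p = 0.251).

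NFKBIE encodes IκBε, another cytoplasmic inhibitor, and lies at chr6:44258166-44265788 on the minus strand. Its libraries had 10.5, 8.98 and 8.28 FPKM in HMC-1.2, 7.43, 7.19 and 8.42 in clone 1, 8.42, 7.78 and 6.76 in clone 2 and 7.44, 7.09 and 7.20 in HMC-1.1. In FPKM, 1 library of each clone overlapped with HMC-1.2, and in CPM HMC-1.2 was above the 9 others. NFKBIE fell by 0.33 on the log2 scale in clone 1 (edgeR, adjusted p = 0.000614), by 0.30 in clone 2 (adjusted p = 0.00195) and by 0.45 in HMC-1.1 (adjusted p = 4.15e-05), each with an SE of 0.07. This call was lost in 2 of 16 alternatives in clone 1 and in 3 of 16 in clone 2. The other 3 populations did not differ from each other by the test, and clone 1 minus clone 2 was -0.03 (95% interval -0.18 to 0.11). Clone 2 minus HMC-1.1 passed only without replicate 3 of clone 2 (0.22, adjusted p = 0.036).

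BCL3 belongs to the IκB family but acts in the nucleus, where it binds dimers of the processed precursors. The gene lies at chr19:44747705-44760044 on the plus strand, where MIR8085 overlaps it on the same strand. The match in its window began at position +3, with the start site counted as +1, within chr19:44748700-44748729.
BCL3 start 1: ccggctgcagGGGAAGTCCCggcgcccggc
BCL3 reached 30.4, 32.8 and 32.4 FPKM in HMC-1.2, 27.8, 30.2 and 26.1 in clone 1, 30.8, 29.5 and 28.1 in clone 2 and 25.5, 25.7 and 25.7 in HMC-1.1. HMC-1.1 was below all other libraries, and the clones overlapped with each other. In FPKM the first library of clone 2 (30.8) was above the lowest of HMC-1.2 (30.4), whereas in CPM HMC-1.2 was above the 9 others. The log2 fold change against HMC-1.2 was -0.24 ± 0.05 in clone 1 (edgeR, adjusted p = 0.000393), -0.19 ± 0.05 in clone 2 (adjusted p = 0.00268) and -0.38 ± 0.05 in HMC-1.1 (adjusted p = 3.22e-06). In clone 2 the call was lost in 3 of 16 alternatives. Clone 2 exceeded HMC-1.1 by 0.19 ± 0.05 (adjusted p = 0.00474). Clone 1 minus HMC-1.1 was 0.15 ± 0.05 (adjusted p = 0.0405), a call lost in 11 of 16 alternatives, among them the fits without any single replicate of HMC-1.1 (0.13 to 0.16, adjusted p = 0.0694 to 0.154) and without replicate 1 or 2 of clone 1 (0.11 and 0.13, adjusted p = 0.204 and 0.162).

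Of the feedback targets, BIRC3 differed between the clones and TNFAIP3 did not pass in any comparison in the main test. TNFAIP3 encodes a ubiquitin-editing enzyme that shuts off signalling to IκB kinase, and lies at chr6:137867214-137883314 on the plus strand, with WAKMAR2 on the opposite strand. Its window held matches at -67 and -55 bases from the start site, within chr6:137867182-137867223.
TNFAIP3 start 1: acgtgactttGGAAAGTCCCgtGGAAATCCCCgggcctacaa
TNFAIP3 stood at 1.63, 1.78 and 2.01 FPKM in HMC-1.2, 1.83, 1.56 and 2.05 in clone 1, 2.22, 1.40 and 1.85 in clone 2 and 1.34, 2.47 and 1.48 in HMC-1.1. In FPKM all 4 populations overlapped, and the second replicate of HMC-1.1 was the highest of the 12 libraries. In CPM the highest was the first replicate of clone 2, at 8.15, and HMC-1.1 at 5.59 to 6.90 lay below HMC-1.2 at 7.12 to 7.76. The differences from HMC-1.2 were -0.17 in clone 1 (95% interval -0.47 to 0.12, edgeR, adjusted p = 0.295), -0.22 in clone 2 (-0.51 to 0.07, adjusted p = 0.204) and -0.295 in HMC-1.1 (interval -0.59 to 0.00, adjusted p = 0.0846). The call depended on single libraries and on other settings of the fit. TNFAIP3 passed in 2 of 16 alternatives in clone 2, among them the fit without replicate 1 of clone 2 (log2 -0.43, edgeR, adjusted p = 0.00653). In HMC-1.1 it passed in 4 of 16, among them the fit without replicate 2 of HMC-1.1 (-0.40, adjusted p = 0.0341).

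BIRC3 encodes an inhibitor of apoptosis that is recruited to TNF receptor complexes and acts on the kinase of the non-canonical pathway. It lies at chr11:102317484-102339403 on the plus strand, where a gene of the opposite strand (ENSG00000288528) overlaps it, and the strand setting of the authors' counting is not given in the sources used here. The 250 bases before its start site (chr11:102317234-102317483) held matches at -199 and -135, and are printed whole as for NFKBIA.
BIRC3, 250 bases before the start site: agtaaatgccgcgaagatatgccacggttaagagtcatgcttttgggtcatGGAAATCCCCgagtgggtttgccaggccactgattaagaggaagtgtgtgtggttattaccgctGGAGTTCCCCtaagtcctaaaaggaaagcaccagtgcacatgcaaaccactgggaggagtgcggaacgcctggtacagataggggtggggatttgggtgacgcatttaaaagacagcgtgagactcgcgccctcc
BIRC3 had 0.22, 0.29 and 0.31 FPKM in HMC-1.2, 0.14, 0.14 and 0.21 in clone 1, 0.40, 0.48 and 0.57 in clone 2 and 0.30, 0.28 and 0.16 in HMC-1.1. The counts behind these values were 33, 44 and 42 in HMC-1.2, 24, 20 and 34 in clone 1, 64, 84 and 87 in clone 2 and 35, 46 and 26 in HMC-1.1. Clone 2 was above the 9 other libraries on each scale, and clone 1 was below HMC-1.2 in FPKM and overlapped with it in CPM. BIRC3 fell 1.76-fold in clone 1 (log2 -0.81 ± 0.28, edgeR, adjusted p = 0.0206) and rose 1.59-fold in clone 2 (0.67 ± 0.25, adjusted p = 0.0366). In HMC-1.1 the difference from HMC-1.2 was -0.40 ± 0.27 (adjusted p = 0.23).

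Neither call on BIRC3 against HMC-1.2 held when single libraries were left out. In clone 1 it was lost without replicate 2 or 3 of HMC-1.2 (log2 -0.70 and -0.71, edgeR, adjusted p = 0.075 and 0.0667) and without replicate 1 or 2 of clone 1 (-0.77 and -0.64, adjusted p = 0.0555 and 0.0841). In clone 2 it was lost without replicate 1 of HMC-1.2 (0.47, adjusted p = 0.167), without replicate 2 of clone 2 (0.62, adjusted p = 0.0953) and without replicate 3 of clone 2, the library with the keratin transcripts (0.67, adjusted p = 0.0667). By contrast, the difference between the clones was 2.80-fold (clone 1 minus clone 2, log2 -1.48 ± 0.27, adjusted p = 0.000185), and it passed with any of the 6 libraries left out. Clone 2 also exceeded HMC-1.1 by 2.11-fold (log2 1.07 ± 0.26, adjusted p = 0.00337), and clone 1 and HMC-1.1 differed by -0.41 with an interval from -1.02 to 0.20 (adjusted p = 0.36).

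The 3 populations other than HMC-1.2 were also compared with each other. Between the clones, 4 members differed (50.2% of all genes tested) and 1 of them, BIRC3, changed (12.6%). Between clone 1 and HMC-1.1, 3 members differed (18.7%) and 0 changed (1.01%), and between clone 2 and HMC-1.1 4 differed (36.0%) and 1 changed, again BIRC3 (8.19%). Of the 4 members that differed between the clones, NFKB2, RELB and NFKBIA were higher in clone 1 and BIRC3 was higher in clone 2.

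Other genes of the pathway were counted in 4 lists. Among the remaining IκB genes, NFKBID, a nuclear member, fell 1.62-fold in clone 1 (log2 -0.69 ± 0.10, edgeR, adjusted p = 2.24e-05), and no other change was called among NFKBIB, NFKBIZ and NFKBID in the 3 comparisons with HMC-1.2. NFKBIB, at 33.0 to 37.1 FPKM, was the most abundant of them, and NFKBIZ did not exceed 17 counts in any library. The median log2 fold changes of the list were -0.09 for clone 1, -0.04 for clone 2 and -0.16 for HMC-1.1.

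Kinases and adaptors upstream of the subunits numbered 28, of which 27 were tested. In clone 1, 11 rose and 8 fell (30.1% and 29.3% of all genes), and 3 changed, all upwards (11.8%). In clone 2, 8 rose and 8 fell (24.7% and 23.8% of all genes), and 1 changed upwards (7.98%). In HMC-1.1, 9 rose and 9 fell (27.2% and 26.5%), and 2 changed upwards (10.1%) and 1 downwards (7.52%). The genes that changed were MALT1, TRAF3 and TRAF5 in clone 1, MALT1 in clone 2, and MALT1, TRAF3 and, downwards, CARD10 in HMC-1.1, of which all but MALT1 are named after their values were seen. MALT1, the protease of the complex that links antigen receptors to IκB kinase, was the list gene that changed in both clones. It had 6.44 to 7.03 FPKM in HMC-1.2, between 14.7 and 15.7 in clone 1, 27.0 to 27.8 in clone 2 and 15.2 to 15.7 in HMC-1.1. No library overlapped between HMC-1.2 and the others or between the clones. Its log2 fold change was 1.02 ± 0.04 in clone 1 (edgeR, adjusted p = 8e-13) and 1.96 ± 0.04 in clone 2 (adjusted p = 1.1e-16). TRAF3, an adaptor that keeps the kinase of the non-canonical pathway in check, had 18.8 to 19.6 FPKM in HMC-1.2, between 38.2 and 39.1 in clone 1, 26.2 to 27.4 in clone 2 and 34.7 to 35.7 in HMC-1.1, with no overlap between any of the 4 populations. It rose by 0.92 ± 0.04 on the log2 scale in clone 1 (edgeR, adjusted p = 4.21e-12), by 0.27 ± 0.04 in clone 2 (adjusted p = 3.27e-05) and by 0.82 ± 0.04 in HMC-1.1 (adjusted p = 2.31e-11). CHUK, a catalytic subunit of IκB kinase, fell by 0.38 on the log2 scale in clone 1 (edgeR, adjusted p = 1.06e-06) and by 0.26 in HMC-1.1 (adjusted p = 7.62e-05), with a difference of 0.01 in clone 2 (adjusted p = 0.905). IKBKB, the other catalytic subunit, rose by 0.10 in clone 1 (adjusted p = 0.0109) and fell by 0.14 in clone 2 (adjusted p = 0.00214), with a difference of 0.00 in HMC-1.1 (adjusted p = 0.958). Both are named after their values were seen. The list medians of 0.04, -0.01 and -0.05 lay near those of all genes.

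Negative regulators of the pathway (12 of 13 tested) contained 0 changed genes in clone 1, where 20.0% of all genes changed. In each of clone 2 and HMC-1.1 they contained 1, downwards in both, where 8.51% and 7.52% of all genes changed downwards. The gene was PDLIM2, which promotes the degradation of RELA and is likewise named after its values were seen, at log2 -1.23 ± 0.05 in clone 2 and -0.61 ± 0.04 in HMC-1.1. At an adjusted p under 0.05, 0 of them rose and 4 fell in clone 1 (30.1% and 29.3% of all genes), 5 rose and 3 fell in clone 2 (24.7% and 23.8%), and 1 rose and 4 fell in HMC-1.1 (27.2% and 26.5%). The medians were -0.06, 0.07 and -0.07.

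Of 40 textbook target genes, 28 were tested. In clone 1, 8 rose and 10 fell (30.1% and 29.3% of all genes), and 2 changed upwards and 10 downwards (11.8% and 8.18%). In clone 2, 10 rose and 9 fell (24.7% and 23.8%), and 3 changed upwards and 7 downwards (7.98% and 8.51%). In HMC-1.1, 7 rose and 13 fell (27.2% and 26.5%), and 2 changed upwards and 13 downwards (10.1% and 7.52%). The medians were -0.33 for clone 1, -0.09 for clone 2 and -0.76 for HMC-1.1. TNF, the cytokine that is both a target and an activator of the pathway, had 85.4 to 88.9 FPKM in HMC-1.2, between 0.66 and 0.99 in clone 1, 0.02 to 0.34 in clone 2 and 1.13 to 1.24 in HMC-1.1. Its libraries in clone 2 held 17, 1 and 2 counts, against 3666 to 4544 in HMC-1.2. The fitted log2 fold change was -6.74 in clone 1 (edgeR, adjusted p = 1.94e-16) and -9.52 in clone 2 (adjusted p = 7.19e-17). No SE is given for TNF, because the SE derived from the test is too small for the few counts of clone 2.

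PLAU, which encodes urokinase, had 14.3 to 15.5 FPKM in HMC-1.2 and fell to 0.30 to 0.68 in clone 1 and 0.57 to 0.99 in clone 2 (log2 -5.01 ± 0.16 and -4.22 ± 0.15). The chemokine gene CCL2 fell by 2.82 on the log2 scale in clone 1 and by 1.47 in clone 2, and CCND1, the gene of cyclin D1, by 3.03 and 1.07. TNFRSF4, a receptor of the TNF family, fell by 1.17 and 0.72. In the opposite direction, LTB, a ligand known to trigger the non-canonical pathway, had 1.5 to 3.05 FPKM in HMC-1.2 and rose to 15.1 to 16.2 in clone 1 and 10.6 to 12.8 in clone 2 (log2 2.86 ± 0.16 and 2.44 ± 0.17). TNFAIP2 rose by 1.16 and 1.04. It had 13.0 to 13.8 FPKM in HMC-1.2, between 29.9 and 32.7 in clone 1 and 27.3 to 29.6 in clone 2. For each of these genes the libraries of HMC-1.2 did not overlap with those of the clones. HMC-1.1 lay on the side of the clones for each of them. Its mean FPKM was 0.29 for PLAU, 19.25 for LTB and 30.87 for TNFAIP2. CCL2 had a mean of 31.65 in HMC-1.1 and 164.9 in HMC-1.2, CCND1 1.35 and 10.27, and TNFRSF4 1.88 and 4.48.

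**Figure D4:**
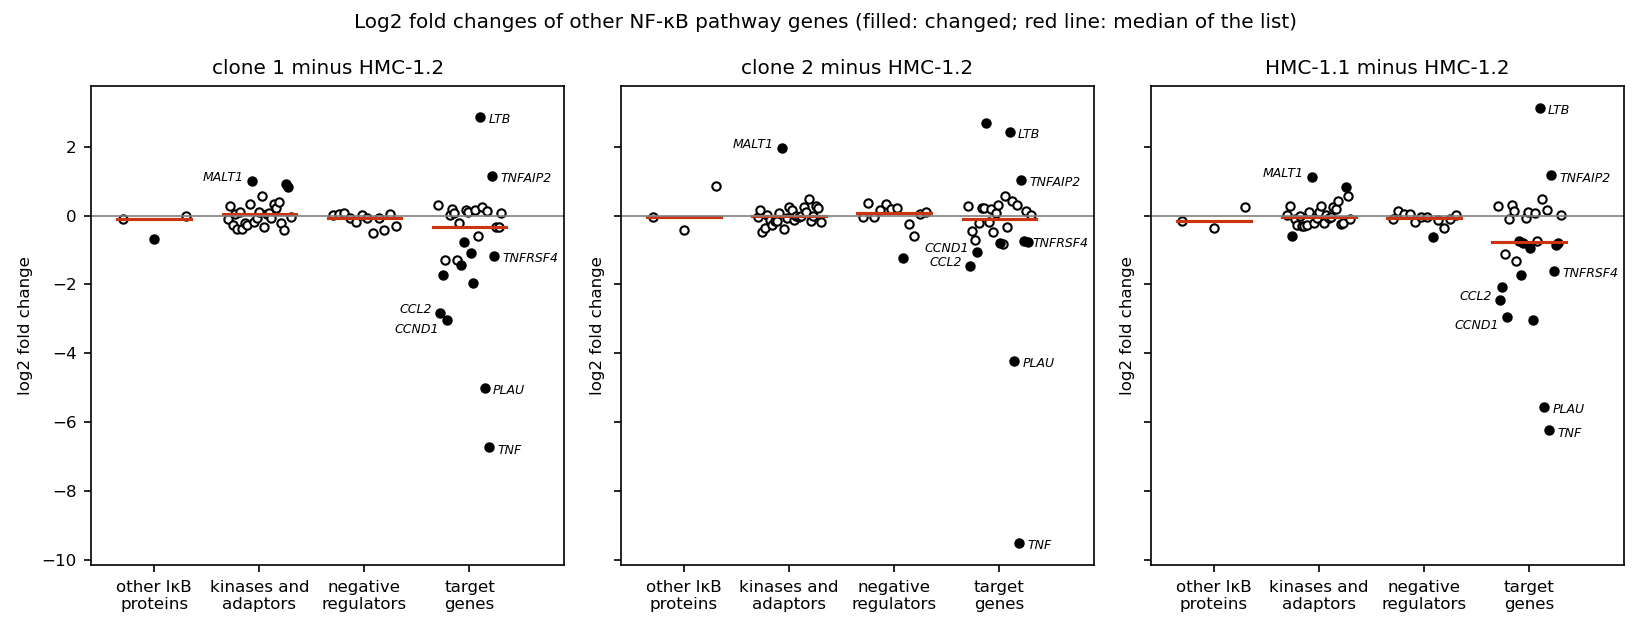
Log2 fold changes (y axis) of the tested genes of the 4 pathway lists in the 3 comparisons with HMC-1.2, with filled points for changed genes, a red line at the median of each list and names on MALT1 and 7 target genes described in the text. MALT1, at 1.96 in clone 2, lies highest among the kinases and adaptors, and the target genes spread from LTB at 2.86 to TNF at -6.74 in clone 1.

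For each member the gene with the most similar course over the 12 libraries was sought among 10878 other genes, by the mean absolute difference of centred log2 CPM. The nearest were DEK for NFKB1 (0.02), HSF1 for NFKB2 (0.03), SEPT5 for RELA (0.02), HOXB2 for RELB (0.04), RHOG for both BCL3 (0.03) and NFKBIE (0.04), TBC1D8 for NFKBIA (0.05), RP11-21M24.1 for REL (0.07), EPC1 for TNFAIP3 (0.09) and RAB27B for BIRC3 (0.24). The values are larger for the genes with low counts, and the 12 libraries are 3 cultures of each of 4 populations. The median over the candidates was 0.19 for NFKB2, 0.29 for NFKBIA and 0.54 for BIRC3.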

How the data were processed

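Per the labels and the study's methods, RNA was made into libraries with a stranded kit, reads were trimmed (cutadapt 2.10), aligned to hg38 (STAR 2.5.3) and counted per gene (RSEM 1.3.0), and Picard was used. The authors deposited expected counts without normalization, and 7.39% of them are not whole. Their deposited FPKM values correct these counts for depth and transcript length. RSEM uses an effective length per library, and the 2 scales can differ. They also did so at high counts, for NFKB1 with at least 3570 and TRAF3 with at least 2572 counts per library. The cause was not tested. The annotation behind the counts was matched to Gencode 44 by identifier, for 99% of genes.

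Counts were rounded, scaled by TMM (factors 0.974 to 1.02) and tested with edgeR 4.0.16 (R 4.3.3), by its quasi-likelihood test over the 15944 genes kept by filterByExpr, with 4 group means and Benjamini-Hochberg adjustment over all of them. The common biological coefficient of variation was 0.0442. Changed means an adjusted p under 0.05 and a fold over 1.5. On simulated data for clone 1 against HMC-1.2, edgeR recovered 189 of 200 genes changed 2-fold and made 3 false calls among 15672 genes. The genes to change were drawn from those above 1 CPM, with the spread estimated from these same data. Far fewer genes differed than in the real comparison. The run therefore does not measure how well differences under 2-fold, such as those of the members from HMC-1.2, are called. Alternatives used DESeq2 1.42.0 and limma 3.58.1, other scaling and filters, a term for 3 libraries labelled as resent, a replicate block, and leaving out libraries. A further one was edgeR's test against 1.5-fold (glmTreat). Smaller differences could not pass it, so the loss of calls on them there was fixed in advance. List genes are named where they changed alike in both clones against HMC-1.2, at most 5 per list and direction, and a mean of 1 CPM or more, and other list genes were named after their values were seen. The members and the lists were chosen with earlier results of these data known, so they are not independent of them. Promoter sequences are RefSeq (GRCh38.p14).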

Additional observations from a re-analysis of the deposited data

Results flagged for a closer look

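The difference from HMC-1.2 itself differed between the HMC-1.3 clones for 4 of the 10 genes, where 50.2% of all genes tested differed, by edgeR's test of clone 1 against clone 2, in which the HMC-1.2 libraries cancel. BIRC3 had the largest difference, -1.48 on the log2 scale (clone 1 minus clone 2, adjusted p = 0.000185), with the 3 libraries of clone 2 above the 3 of clone 1. NFKBIA was higher in clone 1 by 0.49 (adjusted p = 0.000305), RELB by 0.29 (adjusted p = 0.000104) and NFKB2 by 0.17 (adjusted p = 0.000361), each with all 3 libraries of clone 1 above the 3 of clone 2 in CPM.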

How the results depend on the processing

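Over 960 alternative estimates of single members in the 6 comparisons, 839 kept their direction and their side of an adjusted p of 0.05, 75 lost it, 19 gained it, 27 were uncalled values that changed sign, and no called value reversed. The 75 include losses under glmTreat, which differences under 1.5-fold could not pass. Against HMC-1.2, 2 members changed in clone 1, 0 under edgeR's test against 1.5-fold (glmTreat) and 1 under limma on log2(FPKM + 1) or log2(FPKM + 0.1), and 1 to 2 with single libraries left out. In clone 2, where 1 changed, the count was 0 under glmTreat, under limma on log2(FPKM + 1) and without the 3 resent libraries, which was tried after seeing the data, and 0 to 1 with single libraries left out. In HMC-1.1, where 0 changed, it was 1 with a term for the resent libraries or without them and 0 to 1 with single libraries left out, and the member gained was NFKBIA (log2 0.60 with the term, 0.64 without replicate 1 of HMC-1.2). Between the clones the count of 1 fell to 0 under limma on log2(FPKM + 1), and for clone 2 against HMC-1.1 to 0 under glmTreat and that limma fit. Members past an adjusted p of 0.05 between clone 1 and HMC-1.1 went from 3 to 1 in both limma fits and were 0 to 3 with single libraries left out (1 without replicate 2 of HMC-1.1, 0 without replicate 2 of clone 1). Between clone 2 and HMC-1.1 the 4 became 2 to 5, with 2 in the absence of replicate 2 of clone 2. A pseudocount of 1 shrinks differences of BIRC3, which is under 1 FPKM. For the other losses the cause was not tested. NFKBIA in clone 1 stayed between 0.60 and 0.81 on the log2 scale and missed only under glmTreat (adjusted p = 0.175). Replicate numbers did not pair the libraries (correlations of deviations -0.037 to 0.095), and under a replicate block 2, 1 and 0 members changed in the 3 comparisons with HMC-1.2, as without it (BIRC3 -0.81 in clone 1 and 0.67 in clone 2). Genes changed in all ranged over the alternatives from 1902 to 3529 (3193 in the main test) for clone 1 against HMC-1.2, 1453 to 3026 (2630) for clone 2, 1514 to 3113 (2803) for HMC-1.1, 837 to 2278 (2013) between the clones, 9 to 232 (161) for clone 1 against HMC-1.1 and 552 to 1522 (1306) for clone 2 against HMC-1.1. BIRC3 rests on 20 to 87 counts per library, the fewest of the 10 genes.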
